A study of Mus musculus with 6 samples.

Results

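A group of genes of MHC class II antigen presentation were followed in mouse lungs carrying tumours and in the tumour cell line those lungs had been seeded with. They were taken by name, 10 of the 20687 gene symbols in the table: the class II chains H2-Aa, H2-Ab1 and H2-Eb1, the peptide-exchange chains H2-DMa and H2-DMb1, the chains of its inhibitor H2-Oa and H2-Ob, the invariant chain Cd74, the transactivator Ciita and the protease Ctss (cathepsin S). RNA was sequenced from 6 samples. The 3 Lung_KP samples were whole lungs of C57BL/6 mice that had received 100000 KP cells through the tail vein, collected 28 days later and digested with collagenase, and the design text describes pooling from 3 mice in 3 independent experiments. That text can mean a pool of 3 mice in each experiment or 3 mice in all, so the number of mice behind each lung sample is uncertain. The 3 CellLine_KP samples were preparations of the injected line, labelled with the same strain. The design text calls them triplicates and does not mention separate cultures, and so the spread behind the p-values may be technical in CellLine_KP. KP is 1 line whose genotype the labels do not give. No lung free of tumour was among the samples, and RNA of the host lung cannot be told apart from what came with the tumours.

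Class II molecules are pairs of an alpha and a beta chain that carry peptides from endosomes to the cell surface, where CD4 T cells read them. They are made above all by B cells, dendritic cells and macrophages, and many epithelial and tumour cells can make them after exposure to interferon gamma. Newly made chains bind the invariant chain Cd74, which fills the peptide groove and steers the complex to endosomes. Proteases, with cathepsin S in the last step, trim Cd74 to a short fragment called CLIP, and the DM heterodimer exchanges CLIP for other peptides. The DO heterodimer, found mainly in B cells and some dendritic cells, binds DM and restrains it. Ciita binds no DNA itself. It is recruited by RFX, CREB and NF-Y proteins that sit on paired elements, the X box and the Y box, in front of class II genes.

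Promoters of the genes are shown first, because fixed letter patterns of these elements were matched in some of them and not in others. RefSeq promoter sequences of 300 bases, 250 before the start of the gene and 50 after it, were held for 7 of the 10 genes (GRCm38.p6). H2-Ab1, Cd74 and Ciita had none. Each line gives 110 bases, 5′ to 3′ on the strand of the gene. Capitals mark the letters TGATTGG (the core of the Y box), an X box pattern (AG, any base, AAC, any 3 bases, TG) or, in Ctss, an interferon response pattern (GAAA, any 2 bases, GAAA). The windows lie for H2-Aa at chr17:34287854-34287963 on the minus strand, H2-Eb1 at chr17:34305727-34305836 on the plus strand, H2-DMb1 at chr17:34153051-34153160 on the plus strand, H2-DMb2 at chr17:34145109-34145218 on the plus strand, H2-Oa at chr17:34092239-34092348 on the plus strand, H2-Ob at chr17:34238765-34238874 on the plus strand and Ctss at chr3:95526726-95526835 on the plus strand. H2-DMb2, a near copy of H2-DMb1, is shown beside it because the pair is compared later.
H2-Aa: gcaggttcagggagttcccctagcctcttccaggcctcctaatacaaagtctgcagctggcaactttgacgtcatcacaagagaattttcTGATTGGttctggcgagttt
H2-Eb1: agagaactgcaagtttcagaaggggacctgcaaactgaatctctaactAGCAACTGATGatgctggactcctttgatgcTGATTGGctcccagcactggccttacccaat
H2-DMb1: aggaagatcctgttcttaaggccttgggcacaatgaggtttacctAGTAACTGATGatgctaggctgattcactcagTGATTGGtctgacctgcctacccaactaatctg
H2-DMb2: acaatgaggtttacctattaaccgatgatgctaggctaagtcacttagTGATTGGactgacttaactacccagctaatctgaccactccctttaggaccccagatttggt
H2-Oa: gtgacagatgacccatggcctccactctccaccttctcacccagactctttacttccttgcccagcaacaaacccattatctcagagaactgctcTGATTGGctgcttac
H2-Ob: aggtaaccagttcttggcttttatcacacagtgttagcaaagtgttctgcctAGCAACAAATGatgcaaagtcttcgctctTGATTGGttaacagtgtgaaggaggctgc
Ctss: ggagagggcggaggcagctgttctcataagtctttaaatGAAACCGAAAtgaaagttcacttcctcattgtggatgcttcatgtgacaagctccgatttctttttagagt

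Both strands were searched, and the patterns were chosen after the sequences had been seen. The Y box letters stood in 5 of the 7 genes, from 45 bases before the start in H2-Oa to 63 bases before it in H2-DMb1. Over 32851 promoters of the same length, 7.82% held them. The X box pattern stood upstream of the Y box in H2-Eb1, H2-DMb1 and H2-Ob, with 20, 21 and 18 bases between the boxes. Of all promoters, 4.18% held the X box pattern and 0.32% held both. In H2-DMb2 the Y box letters lay 92 bases before the start and the X box pattern was not matched. The interferon response pattern lay from 21 to 12 bases before the start of Ctss and was held by 3.44% of all promoters. H2-DMa matched none of the 3 patterns. The patterns allow no other letters, so a promoter without a match was not shown to lack the box. These matches describe letters in a window, and binding was not measured.

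Estimated counts summed to between 17786758 and 22862396 per sample, and 3 counts, the most that a count of 0 allows, equalled 0.120 to 0.173 CPM. CPM here are counts scaled to a common library size, and log2 fold changes are Lung_KP minus CellLine_KP. One lung sample stood apart by transcript length. In Lung_KP replicate 2, genes in the shortest length quartile lay 0.76 above the other lung samples in log2 median, and genes in the longest lay 0.98 below. That split touches the genes described here, most of which are short. Whole lung RNA mixes cell types, and fewer cells of a type cannot be told apart from less RNA per cell in bulk samples. The lung samples held lung tissue markers, with 8 alveolar type 2 genes summing to between 14662 and 20976 CPM, against 152 to 155 CPM in the cell line. Most of that cell line sum was Abca3 (79.7 to 86.5 CPM) and Etv5 (61.9 to 68.3 CPM). Sftpa1 and Slc34a2 had 0 counts in every cell line sample. The cell line samples also held RNA of leukocyte genes. Ptprc (CD45, on all leukocytes) was at 247, 172 and 265 CPM in Lung_KP replicates 1 to 3, against 44.8, 36.4 and 22.7 CPM in CellLine_KP replicates 1 to 3.

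All 10 genes were higher in Lung_KP, by 5.42 to 62.8 times, and the groups did not overlap for any of them. All 10 passed the filter on low counts. Each was above the level of 3 counts in every cell line sample. Their median log2 fold change was 4.43, against 0.08 over the 15212 genes tested. In the same test 48.8% of all genes passed the threshold, 31.3% being higher in Lung_KP and 17.5% lower, and 35.6% were higher with groups that did not overlap. A change of at least 4 times, past the threshold of adjusted p below 0.05, was reached by 10 of 10 class II genes and by 24.3% of all genes tested. Markers of the cell types best known for class II were higher in lung as well, 10 of 10 for B cells, 10 of 10 for dendritic cells and 10 of 10 for monocytes and macrophages. Of 8 alveolar macrophage markers 6 were higher, Pparg was lower (log2 fold change -1.51) and Mrc1 did not pass the threshold. The dendritic cell markers summed to 165 to 259 CPM in Lung_KP, against 10 to 19.5 CPM in CellLine_KP. The monocyte and macrophage markers summed to 6851 to 9203 CPM in Lung_KP, against 63.0 to 108 CPM in CellLine_KP. Their part in the class II values was not tested.

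**Figure D1:**
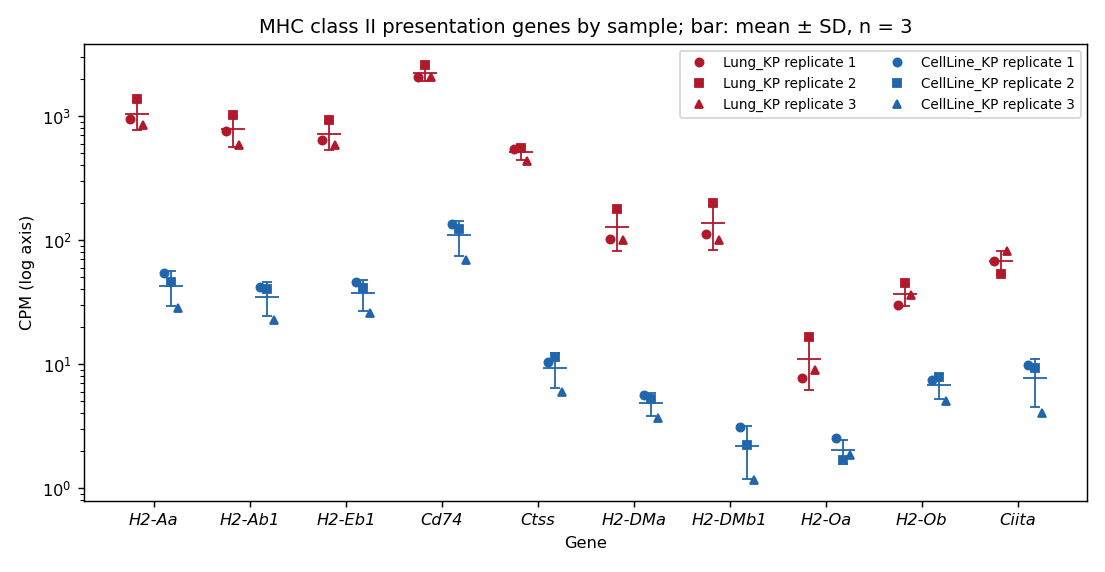
CPM of each class II gene in the 3 Lung_KP and the 3 CellLine_KP samples, on a log axis. Every lung point lies above every cell line point of the same gene, with the widest gaps for H2-DMb1 and Ctss and the narrowest for H2-Oa and H2-Ob.

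The classical chains formed the main group by level. H2-Aa, the alpha chain of the I-A molecule, was at 939, 1361 and 841 CPM in Lung_KP, against 54.2, 45.9 and 28.3 CPM in CellLine_KP. Lung replicate 2 was the highest sample and cell line replicate 3 the lowest. Its means were 1047 ± 276 CPM in Lung_KP and 42.8 ± 13.3 CPM in CellLine_KP (SD, n = 3 each), a log2 fold change of 4.61 (SE 0.40, edgeR quasi-likelihood adjusted p = 6.64e-05). H2-Ab1, the beta chain that pairs with it, was at 755, 1023 and 584 CPM in Lung_KP, against 41.7, 40.4 and 22.7 CPM in CellLine_KP. The samples took the same order as for H2-Aa, with a log2 fold change of 4.49 (SE 0.40, edgeR adjusted p = 7.29e-05). H2-Eb1 encodes the beta chain of I-E. C57BL/6 mice make no alpha chain to pair with it, so its RNA is not matched by surface I-E in that strain. H2-Eb1 was at 636, 924 and 581 CPM in Lung_KP, against 45.7, 40.7 and 25.6 CPM in CellLine_KP, with a log2 fold change of 4.26 (SE 0.37, edgeR adjusted p = 6.88e-05). The log2 fold changes of the 3 chains thus lay within 1 SE of each other.

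Cd74, the invariant chain, was the most abundant of the 10 in both groups. It was at 2055, 2595 and 2049 CPM in Lung_KP, against 135, 122 and 69.6 CPM in CellLine_KP. The log2 fold change was 4.36 (SE 0.39, edgeR adjusted p = 7.26e-05), within 1 SE of those of the chains it binds.

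Ctss, which makes the last cut in Cd74, had a larger change. It was at 539, 557 and 435 CPM in Lung_KP, against 10.4, 11.5 and 6.00 CPM in CellLine_KP. The log2 fold change was 5.78 (SE 0.38, edgeR adjusted p = 2.88e-05). Ctss had the least scatter of lung values relative to its mean among these genes, 510 ± 66.0 CPM in lung, against 9.30 ± 2.90 CPM in the cell line.

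The peptide-exchange chains were lower in level. Gene by gene their log2 fold changes were above those of the classical chains, but that of H2-DMa lay within 1 SE of those of H2-Aa and H2-Ab1. H2-DMa, the alpha chain of DM, was at 102, 178 and 100 CPM in Lung_KP, against 5.64, 5.24 and 3.69 CPM in CellLine_KP. Its log2 fold change was 4.71 (SE 0.37, edgeR adjusted p = 4.45e-05). H2-DMb1, a beta chain of DM, was at 112, 200 and 101 CPM in Lung_KP, against 3.12, 2.24 and 1.16 CPM in CellLine_KP. It had the largest log2 fold change of the 10, 5.97 (SE 0.50, edgeR adjusted p = 5.86e-05). H2-DMb2, the second beta chain gene of DM, is not among the 10. It was at 36.0, 64.9 and 40.0 CPM in Lung_KP, against 9.70, 8.52 and 5.05 CPM in CellLine_KP, and its log2 fold change was 2.60 (SE 0.36, edgeR adjusted p = 0.000633). Per length, H2-DMb1 over H2-DMb2 was 3.03 ± 0.391 in Lung_KP and 0.301 ± 0.0377 in CellLine_KP (SD, n = 3 each). H2-DMb1 was above H2-DMb2 in every lung sample and below it in every cell line sample. The main H2-DMb1 transcript shares 37.6% of its 31-base words with H2-DMb2, so the split of reads between the 2 genes is uncertain. Their sum was 148, 265 and 141 CPM in Lung_KP, against 12.8, 10.8 and 6.21 CPM in CellLine_KP. The cell line mean of that sum was 5.39% of the lung mean, against 4.09% for H2-Aa, 4.44% for H2-Ab1 and 5.23% for H2-Eb1. Summed, the beta chain genes of DM therefore did not change more than the classical chains.

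The DO chains changed least. H2-Oa, the alpha chain of DO, was at 7.67, 16.6 and 8.88 CPM in Lung_KP, against 2.52, 1.67 and 1.84 CPM in CellLine_KP. Its log2 fold change was 2.45 (SE 0.41, edgeR adjusted p = 0.00153). H2-Ob, the beta chain, was at 29.9, 44.8 and 35.8 CPM in Lung_KP, against 7.46, 7.89 and 5.0 CPM in CellLine_KP, with a log2 fold change of 2.44 (SE 0.30, edgeR adjusted p = 0.000312). Their groups stood apart, but the gap was smaller than for the other 8 genes. DO is best known from B cells, and 10 of 10 B cell markers were also higher in lung (median log2 fold change 1.76). The markers summed to 215 to 402 CPM in lung, against 61.2 to 113 CPM in the cell line, with no marker at 0. Their part in the DO values was not tested.

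Ciita, the transactivator, was at 68.1, 53.2 and 81.2 CPM in Lung_KP, against 9.89, 9.32 and 4.0 CPM in CellLine_KP. Its log2 fold change was 3.12 (SE 0.40, edgeR adjusted p = 0.000384). Ciita was the only one of the 10 with its lowest lung value in replicate 2. Its main transcript of 6007 bases falls in the longest length quartile, where replicate 2 was low over all genes. Against the mean of the other lung samples, replicate 2 was 0.48 lower in log2 for Ciita. It was 0.20 higher for Ctss, 0.34 higher for Cd74 and 0.45 higher for H2-Ob. H2-Aa, H2-Ab1, H2-Eb1, H2-DMa, H2-DMb1 and H2-Oa were 0.60 to 1.0 higher there. Of these, Ctss, Cd74 and the chains other than H2-Ob fall in the shortest quartile. The part of transcript length in these values was not tested.

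Per length, the order of the genes differed between the groups only in its lower end. For comparing genes, counts were divided by transcript length and scaled to a common total (TPM). In Lung_KP, Cd74 led with 3222 ± 229 TPM, followed by H2-Aa with 1660 ± 93.0 TPM, H2-Eb1 with 1205 ± 43.7 TPM and H2-Ab1 with 1175 ± 132 TPM. Ctss stood at 691 ± 110 TPM, H2-DMa at 186, 229 and 187 TPM in replicates 1 to 3 and H2-DMb1 at 178 ± 35.4 TPM. H2-Ob at 36.4 ± 2.99 TPM, Ciita at 23.2 ± 8.49 TPM and H2-Oa at 17.5 ± 3.66 TPM were lowest (SD, n = 3). The sample ranges of H2-Eb1 and H2-Ab1, of H2-DMa and H2-DMb1, and of Ciita and H2-Oa overlapped. Within samples, H2-DMa was above H2-DMb1 in all 3. H2-Eb1 was above H2-Ab1, and Ciita above H2-Oa, in 2 of 3 samples each.

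In CellLine_KP the top was again Cd74 with 156 ± 50.3 TPM, H2-Aa with 66.3 ± 20.9 TPM, H2-Eb1 with 58.0 ± 15.5 TPM and H2-Ab1 with 51.8 ± 15.7 TPM. Ctss followed with 12.2 ± 3.84 TPM, then H2-DMa with 7.60 ± 1.56 TPM and H2-Ob with 6.97 ± 1.93 TPM. H2-Oa at 3.27 ± 0.775 TPM, H2-DMb1 at 3.00 ± 1.23 TPM and Ciita at 2.91 ± 1.38 TPM closed the order. Only Cd74 and H2-Aa, H2-Ab1 and Ctss, and H2-Ob and H2-Oa had ranges that did not overlap among neighbours in that order. Within samples, each gene was above the next in all 3, except at the end. There H2-Oa was above H2-DMb1, and H2-DMb1 above Ciita, in 2 of 3 samples each. H2-DMb1 was thus seventh in Lung_KP and ninth in the cell line.

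The proportions between genes that work together were compared sample by sample, as ratios of TPM. In all, 9 ratios were formed, chosen after the values had been seen, and with 3 samples a group the smallest 2-sided p of an exact permutation test is 0.1, so no ratio could pass the threshold. H2-DMa over H2-Oa, the exchange chain over the inhibitor chain, was 11.6 ± 1.27 in Lung_KP and 2.37 ± 0.526 in CellLine_KP (exact permutation p = 0.1, 0.129 adjusted over the 9 ratios). H2-DMb1 over H2-DMa was 0.883 ± 0.0682 in Lung_KP and 0.382 ± 0.0926 in CellLine_KP. With H2-DMb2 added to H2-DMb1, which depends less on how their shared reads were split, the order of the groups turned round. The sum over H2-DMa was 1.18 ± 0.0563 in Lung_KP and 1.64 ± 0.253 in CellLine_KP. H2-Aa over Ctss was 2.44 ± 0.440 in Lung_KP and 5.46 ± 0.721 in CellLine_KP. Ciita per 1000 H2-Aa was 14.2 ± 5.88 in Lung_KP and 42.1 ± 9.84 in CellLine_KP. The groups did not overlap in these 5 ratios, nor in H2-DMb1 over H2-DMb2 or in Cd74 over H2-Aa, where the means were 1.95 ± 0.238 in Lung_KP and 2.34 ± 0.11 in CellLine_KP. H2-Aa over H2-Ab1 was 1.42 ± 0.0981 in Lung_KP and 1.28 ± 0.0935 in CellLine_KP (exact permutation p = 0.2). H2-Ob over H2-Oa was 2.14 ± 0.480 in Lung_KP and 2.17 ± 0.654 in CellLine_KP (exact permutation p = 1).

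**Figure D2:**
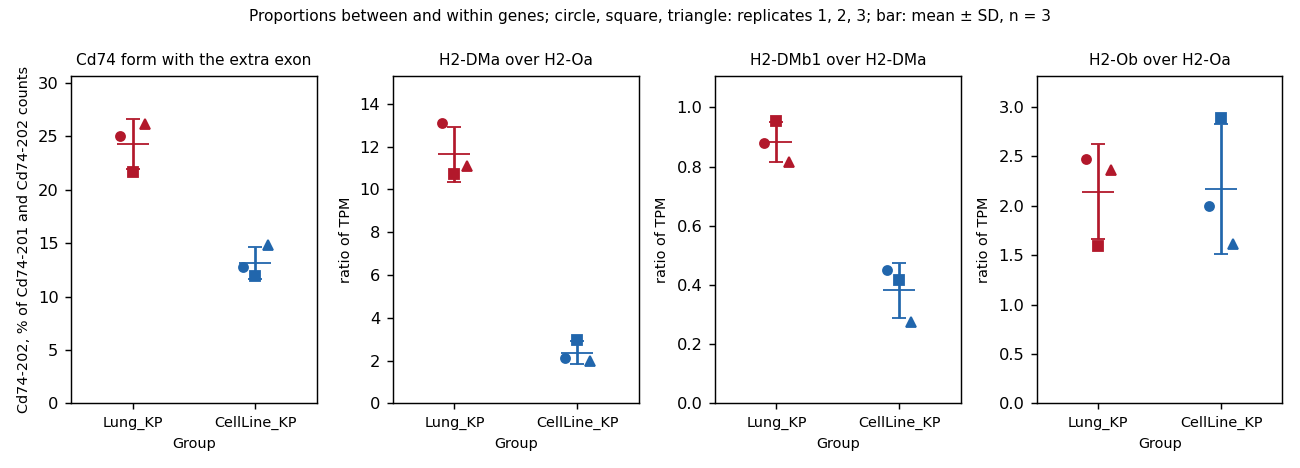
The share of the longer Cd74 form in percent and 3 ratios of TPM between class II genes, with 1 point a sample, bars for mean ± SD (n = 3) and Lung_KP left of CellLine_KP. The Cd74 share lies between 21.7% and 26.2% in lung, against 11.9% to 14.8% in the cell line, H2-DMa over H2-Oa and H2-DMb1 over H2-DMa lie higher in lung (with H2-DMb2 added to H2-DMb1, 1.18 in lung and 1.64 in the cell line), and H2-Ob over H2-Oa overlaps between the groups.

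The table is by transcript, so forms of 1 gene could be described. Cd74 has a form with 1 extra exon of 192 bases, adding 64 residues. That exon encodes a domain known to inhibit cathepsin L, and the form is called p41. Its transcript held 25%, 21.7% and 26.2% of the counts of the p41 and p31 transcripts in Lung_KP replicates 1 to 3, against 12.8%, 11.9% and 14.8% in CellLine_KP replicates 1 to 3. The exact binomial 95% intervals, which cover counting error only, ran from 21.4% to 26.6% over the lung samples and from 10.5% to 16.8% over the cell line samples. The 2 groups therefore did not overlap, and the shares were not tested. They rest on how the quantifier divided reads between the forms.

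The share held by coding transcripts differed between genes. For H2-Eb1, transcripts annotated as coding held 22.5%, 22.8% and 21.7% of the gene in Lung_KP, against 36.4%, 31.6% and 25.6% in CellLine_KP. H2-Eb1-205, annotated as a target of nonsense-mediated decay, held 51.9 ± 2.15% in Lung_KP and 54.0 ± 5.19% in CellLine_KP. A transcript of H2-Eb1 that retains an intron held 7.22 ± 1.28% in Lung_KP and had 0 counts in every CellLine_KP sample. The gene sum of H2-Eb1 is therefore mostly counts on transcripts of types other than protein coding. For H2-Aa, coding transcripts held 98.9% to 99.5% in Lung_KP and 95.7% to 97.6% in the cell line. The transcript of Ciita with the full 3′ end held 90.5 ± 2.0% of the gene in Lung_KP and 79.6 ± 8.92% in CellLine_KP, where replicate 1 was lowest at 69.3%. The main H2-Ob transcript held 66.9 ± 3.33% in Lung_KP and 55.6 ± 1.96% in CellLine_KP.

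What stayed in the cell line differed between genes. The mean cell line level was 1.58% of the lung level for H2-DMb1 and 1.82% for Ctss. It was 16.5% for H2-DMb2 and 5.39% with H2-DMb1 and H2-DMb2 summed. The part of the split of their shared reads in the low place of H2-DMb1 was not tested. It was 3.82% for H2-DMa, 4.09% for H2-Aa, 4.44% for H2-Ab1, 4.86% for Cd74 and 5.23% for H2-Eb1. Ciita kept 11.5%, H2-Oa 18.2% and H2-Ob 18.4%. The same share ran from 25.2% to 48.6% over the 10 B cell markers and was 31.6% for their sum. It was 8.61% for the sum of 4 leukocyte genes, 10.1% for 10 T cell markers, 6.64% for 10 dendritic cell markers and 1.16% for 10 monocyte and macrophage markers. No gene of these 5 lists was at 0 over the cell line samples.

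**Figure D3:**
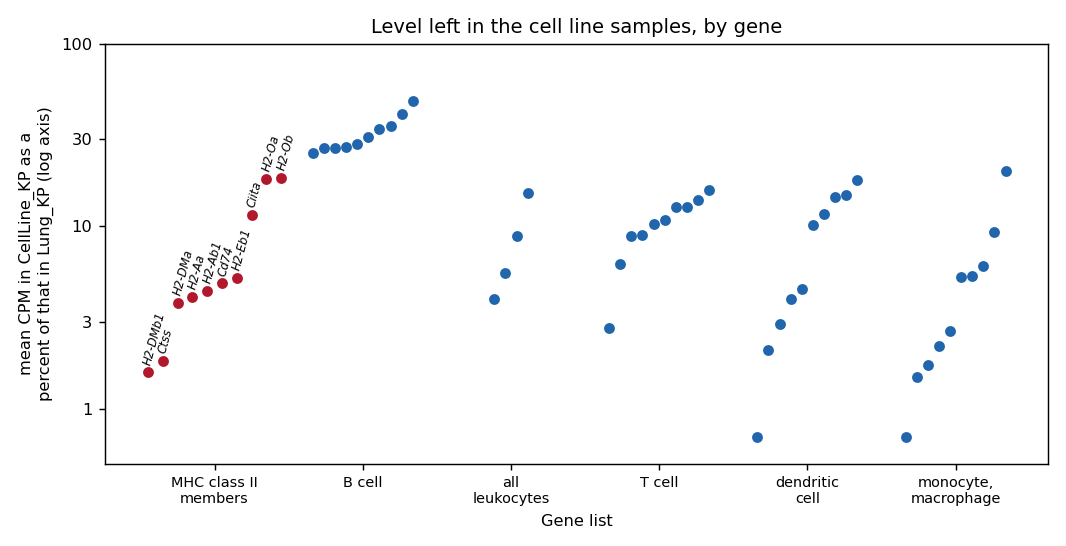
Mean CPM in CellLine_KP as a percent of mean CPM in Lung_KP, on a log axis, for each class II gene and for each gene of 5 marker lists. H2-Oa and H2-Ob lie nearest the B cell markers, which run from 25.2% to 48.6%, and H2-DMb1 and Ctss are the lowest of the class II genes.

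The cell line samples also differed among themselves. Of the 10 genes, 9 were lowest in CellLine_KP replicate 3, H2-Oa being the exception. The ratio of replicate 3 to replicate 2 was 0.615 for H2-Aa (exact binomial 95% interval 0.551 to 0.688), 0.572 for Cd74 (0.534 to 0.613) and 0.429 for Ciita (0.322 to 0.567). It was 0.563 for H2-Ab1 (0.498 to 0.635), 0.630 for H2-Eb1 (0.560 to 0.708), 0.634 for H2-Ob (0.483 to 0.830) and 0.524 for Ctss (0.412 to 0.663). The DM chains had fewer counts and wider intervals, with ratios of 0.704 for H2-DMa (0.508 to 0.971) and 0.516 for H2-DMb1 (0.291 to 0.892). For these 9 genes the interval lay below 1. The intervals cover counting error only and compare 2 samples, not conditions. H2-Oa, with 35 and 29 counts in replicates 3 and 2, had a ratio of 1.10 (0.655 to 1.87), an interval that holds 1. In all, 9 of 10 ratios were below 0.75, and the median was 0.594. Over all 12793 genes with 10 or more counts in replicate 2 the median was 1 and 9.64% were below 0.75. Other genes were lower in replicate 3 as well. The ratio was 0.541 to 0.625 for 4 of 4 leukocyte genes and 0.492 to 0.693 for 10 of 10 B cell markers. It was below 0.75 for 6 of 10 T cell markers, 6 of 10 monocyte and macrophage markers and 5 of 7 dendritic cell markers with enough counts. Of 4 alveolar macrophage markers with enough counts, 0 were below 0.75 (median 1). Of these, Pparg and Mrc1 had cell line means of 285% and 125% of their lung means. Chil3 and Marco had only 14 and 21 counts in replicate 2, with intervals of 0.331 to 1.83 and 0.503 to 1.83. Some genes outside the leukocyte lists were lower in replicate 3 too. Of 5 endothelial markers 4 were below 0.75 (median 0.61), as were 6 of 9 class I genes (median 0.703). Of 3 alveolar type 2 markers with enough counts, Napsa was at 0.39, Etv5 at 0.996 and Abca3 at 1.02. Markers of the epithelial line ran from 0.979 to 1.16, and the 7 promoter factors from 0.929 to 1.10. Replicate 1 stood apart on the sum of the epithelial markers instead, 4097, 7958 and 8001 CPM in CellLine_KP replicates 1 to 3. Krt8 was at 996, 3426 and 3451 CPM there, and Krt18 at 1180, 2593 and 2620 CPM. Cdh1 differed less (415, 466 and 466 CPM), and Msln went the other way (911, 613 and 600 CPM). Epcam was low in all 3 (1.91, 2.59 and 3 CPM), against 46.7 to 59.2 CPM in Lung_KP. Of the 6 epithelial markers, 2 were lower in lung, Epcam was higher and 3 did not pass the threshold. The class II genes did not follow the low sum in replicate 1, with a median ratio of replicate 1 to replicate 2 of 1.09, against 0.715 for the epithelial markers. The sums of the class II genes were 315, 286 and 168 CPM in CellLine_KP replicates 1 to 3, and those of the 4 leukocyte genes were 100, 87.9 and 51.4 CPM. The part of RNA from leukocytes or other lung cells in the class II values of the cell line was not tested.

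**Figure D4:**
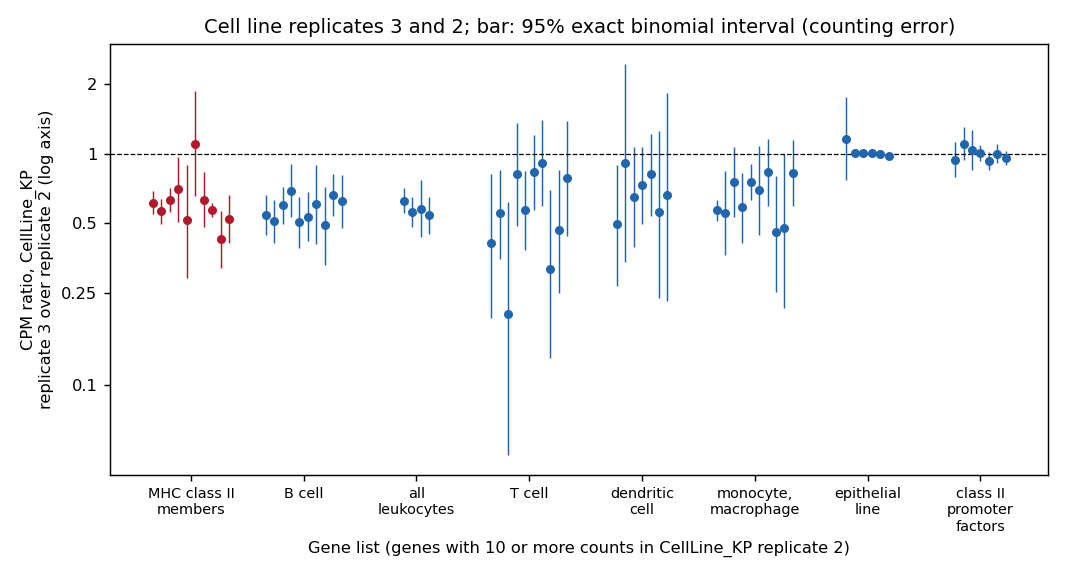
Ratio of CPM in CellLine_KP replicate 3 to replicate 2 for the class II genes and the genes of other lists, on a log axis. For class II, 9 of 10 genes lie below 0.75, as do the leukocyte and B cell genes, and the epithelial genes and promoter factors lie near 1.

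The rest of the pathway was described over 38 tested genes of 42 listed, apart from the 10 and from class I genes. Of these, 26 were higher in lung, 1 was lower and 11 did not pass the threshold, with a median log2 fold change of 2.52. Over all genes tested 31.3% were higher and 17.5% lower, the shares to set beside this count and those of the single lists below. Ifng had 0 counts in the cell line, and setting it to its bound leaves that median as it is. H2-Ea, H2-Ea-ps and Ifi30 were not analysed here, and Il10 was not tested. Both other chain genes were higher, H2-DMb2 as given above and H2-Eb2, an I-E beta-like gene, which averaged 6.84 ± 0.641 CPM in Lung_KP and 2.13 ± 0.674 CPM in CellLine_KP (edgeR adjusted p = 0.00583). Of 7 genes whose proteins bring Ciita to the promoter, 1 passed the threshold. Rfx5, the DNA-binding subunit of RFX, was higher in lung, with a log2 fold change of 0.95 (edgeR adjusted p = 0.0275). Rfxap, Rfxank, Nfya, Nfyb, Nfyc and Creb1 had log2 fold changes from -0.55 to 0.54 and did not pass. A p above the threshold does not show that their levels were alike.

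In the interferon gamma pathway, which switches on Ciita outside professional antigen-presenting cells, 6 of 8 genes were higher in lung. Ifng, the cytokine itself, averaged 1.76 ± 0.236 CPM in Lung_KP and had 0 counts in every cell line sample, at least 33.9-fold higher against a floor of 3 counts over the group. Irf1, a transcription factor that acts on Ciita, averaged 185 ± 6.74 CPM in Lung_KP and 30 ± 2.05 CPM in CellLine_KP (log2 fold change 2.63, edgeR adjusted p = 6.37e-05). Socs1, a feedback inhibitor, had a log2 fold change of 3.38. The receptor genes Ifngr1 and Ifngr2 had smaller ones, 0.89 and 0.85. Jak1 at 0.19 and Jak2 at -0.18 did not pass.

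Among endosomal enzymes the cathepsins differed in direction. Ctsl, cathepsin L, which processes Cd74 in the thymic cortex, was the single pathway gene lower in lung. It was at 178, 179 and 175 CPM in Lung_KP, against 942, 652 and 651 CPM in CellLine_KP (log2 fold change -2.08, edgeR adjusted p = 0.000519). Ctsh, Ctsc, Lgmn and Cst3 were higher, with log2 fold changes of 3.64, 1.46, 1.87 and 2.60. Ctsb at 0.47 and Ctsd at 0.50 did not pass. March1, a ubiquitin ligase that removes class II from the surface, had a log2 fold change of 2.45, and Cd83, which opposes it, had 3.51, both past the threshold, while March8 at -0.23 did not pass. All 6 genes listed under costimulation were higher, from 3.26 for Icosl to 4.09 for Cd40. The list also held Cd274 at 3.45 and Pdcd1lg2 at 3.47, which encode ligands of the inhibitory receptor PD-1. All 5 genes of the T cell receptor side that reads class II were higher, from 2.65 for Cd3e to 5.17 for Cd3g. The T cell markers summed to 200 to 244 CPM in lung, against 15.1 to 27.0 CPM in the cell line, and their part in these values was not tested.

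**Figure D5:**
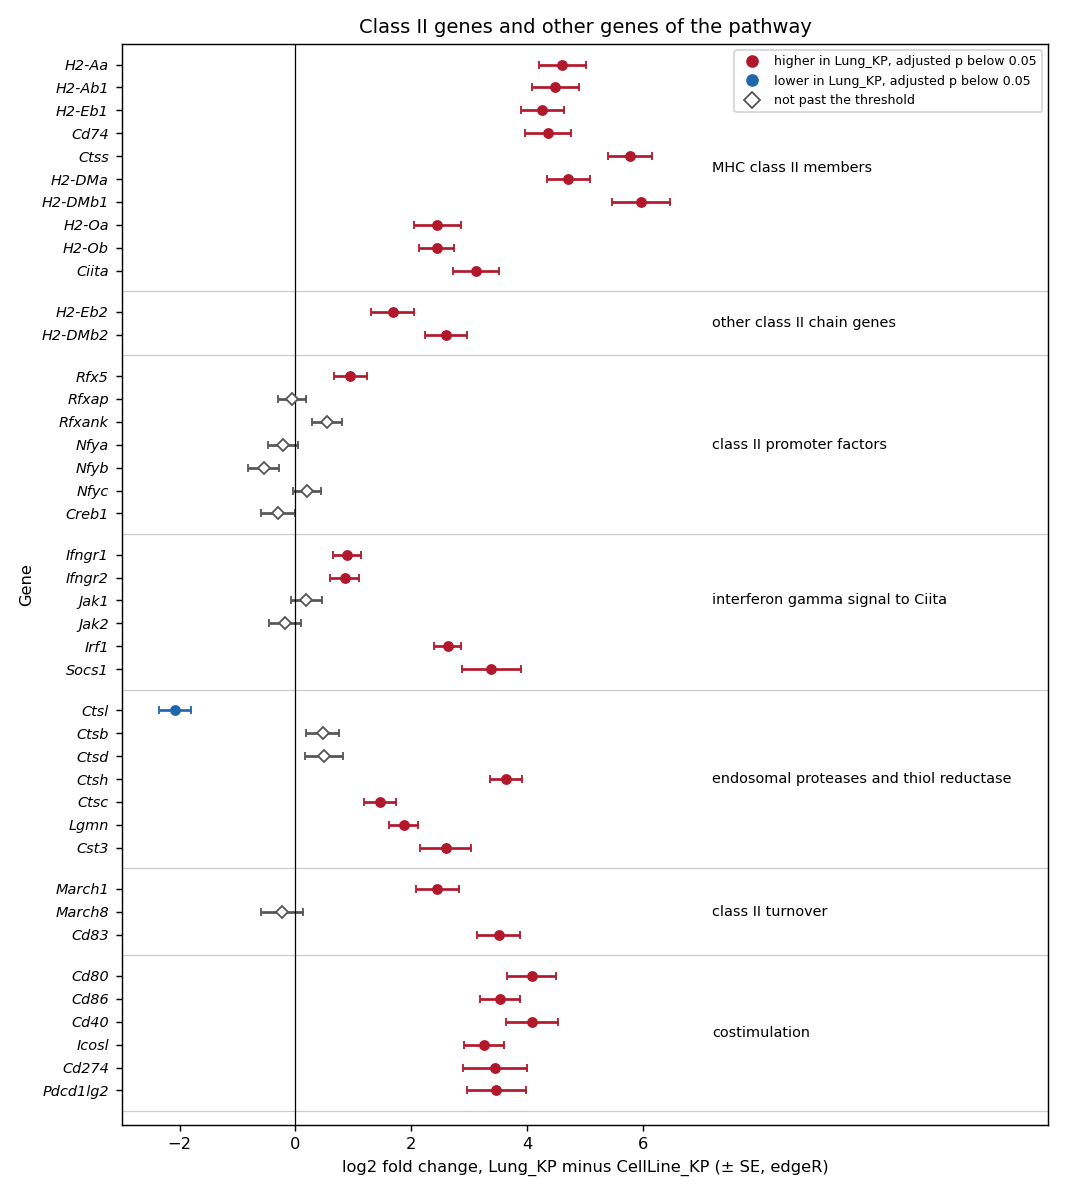
Log2 fold changes, Lung_KP minus CellLine_KP, with standard errors from edgeR, for the class II genes and most other genes of the pathway. Ifng is left out because it had 0 counts in the cell line, and the promoter factors other than Rfx5 run from -0.55 to 0.54.

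Class I presentation genes were set beside these for comparison. All 9 were higher in lung, as were 31.3% of all genes tested. Their median log2 fold change was 4.5, against 4.43 for the 10 class II genes. H2-K1, a classical class I heavy chain, averaged 1715 ± 35.9 CPM in Lung_KP and 65.3 ± 36.6 CPM in CellLine_KP.

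Of 13628 genes outside the 10, Ppfia4, Thy1, Phf11b and Cd48 were among the 5 whose profile over the 6 samples lay nearest to the mean profile of H2-Aa, H2-Ab1, H2-Eb1 and Cd74. The root mean square difference in log2 CPM was 0.121 for Ppfia4, 0.132 for Thy1, 0.144 for Phf11b and 0.160 for Cd48. The 4 genes that form the profile lay at 0.076 to 0.099, H2-DMa at 0.167, Ctss at 0.694, Ciita at 0.740, H2-DMb1 at 0.773, H2-Ob at 1.023 and H2-Oa at 1.102. Thy1, a surface protein found on T cells, was at 46.2, 51.0 and 38.5 CPM in Lung_KP, against 2.56, 1.90 and 1.26 CPM in CellLine_KP. The likeness is a description over 6 samples that fall into 2 groups, and the gap between the groups makes up most of every such profile.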

How the data were processed

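RNA-seq was available for 3 Lung_KP and 3 CellLine_KP samples, grouped by their labels. The authors deposited estimated counts per transcript. The tools named, per the submitters' processing notes, were Salmon 1.4.0, FastQC 0.11.9 and DESeq2 1.32.0, with the build GRCm39. What DESeq2 was used for, and the annotation, were not given in the sources used here. Per the labels' protocols, libraries were made with a stranded mRNA kit, and a Nugen amplification before hybridization is also mentioned. Transcripts were named from GENCODE M21 (GRCm38), for names and lengths only. Of 76776 transcripts, 76521 (99.67%) matched, and the others held 0.11% to 0.42% of the counts and stayed out of all tests. Promoters are from RefSeq (GRCm38.p6).

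Estimated counts were summed per gene, rounded to whole numbers, and fitted in edgeR 4.0.16 (R 4.3.3) by its quasi-likelihood F test, with TMM scaling, the expression filter by group and Benjamini-Hochberg adjustment over all 15212 genes tested. Adjusted p below 0.05 was the threshold. The model held the group only. TPM were computed from these counts and annotated transcript lengths. The fit was also run on simulated data in which few genes changed, as many up as down. Far more genes passed in the real data, so that run says little about scaling here. Reads shared by near-identical genes and by transcripts of 1 gene were divided by the quantifier, which leaves such values uncertain. The members and lists were chosen with earlier results of these data known. All 10 members were named, with the 5 most alike genes by profile at 1 CPM or more in at least 3 samples. Of the genes under that rule, 2 are counted but not reported here. The replicate numbers were checked for pairing across groups, and samples were not treated as pairs. Alternatives were other scalings, filters and tests, a replicate block, and samples left out.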

Additional observations from a re-analysis of the deposited data

How the results depend on the processing

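All 140 log2 fold changes of the 10 class II genes under 14 alternatives stayed past the threshold and above 0. They ranged from 1.98 for H2-Oa without Lung_KP replicate 2 to 6.32 for H2-DMb1 without CellLine_KP replicate 1, and the largest adjusted p was 0.00854 (edgeR, H2-Oa). The count of these genes higher in lung was 10 throughout. Over all genes, 7422 passed, against 4286 under a filter of at least 10 counts in each of the 6 samples, where fewer genes were tested, 12082 without CellLine_KP replicate 1 and Lung_KP replicate 2 together, and 6080 to 8921 with 1 sample left out. Pathway genes higher in lung numbered 26, and 23 to 28 with 1 sample left out. They numbered 31 without CellLine_KP replicate 1 and Lung_KP replicate 2 together. Under the filter of at least 10 counts in each sample they numbered 21 of 33 tested. Pathway genes lower in lung numbered 1, against 2 (Ctsl and Nfyb) without CellLine_KP replicate 1, and 2 without that sample and Lung_KP replicate 2 together. The cause was not tested. With 1 sample left out the count ran from 1 to 2. With library size alone as scaling, 75.1% of all calls were higher in lung, against 64.1% with TMM, and the median of all genes shifted by 0.22 in log2. Same-numbered samples did not pair, with correlations of deviations of -0.04, 0.08 and -0.08. With the replicate block, 7160 genes passed, 10 class II genes and 25 pathway genes were higher and 1 pathway gene was lower. Depth limited H2-DMb1, at 39 and 22 counts in CellLine_KP replicates 2 and 3, and H2-Oa, at 29 and 35 counts there.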
